A study of Rattus norvegicus with 15 samples.

Results

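Transcripts of 39 lysosomal genes were followed in rat synovium, the tissue that lines the joint, out of 23342 genes in the deposited count table. The genes were chosen by name, as a list of lysosomal enzymes, their activators and lysosomal membrane proteins, and all 39 were present in the table and passed the filter on low counts. All rats were wild type (WT). The 5 control rats had no treatment. The 5 AIA rats had adjuvant-induced arthritis, set off by an injection of complete Freund's adjuvant (100 uL) within the skin of the tail. The 5 rats of the antibody group had AIA and also received an anti-cANGPTL4 antibody into the peritoneum 2 times per week. Strain, age and sex are not stated by the labels, and no vehicle or isotype antibody is named for the AIA rats. A library is counted here as 1 rat, which is uncertain for antibody replicate 21_8, since its title holds a pair of numbers.

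Lysosomes are acid compartments in which proteins, glycans, lipids and whole organelles are taken apart. Their hydrolases are made in the secretory pathway and delivered to the lysosome, a proton pump keeps the lumen acid, and heavily glycosylated membrane proteins line it. Transcription of many of these genes is known to be raised by the basic helix-loop-helix factors TFEB, TFE3 and MITF, which bind a motif called CLEAR or the related M-box. In the synovium, macrophages of the lining and sublining are rich in lysosomes, fibroblasts secrete cathepsins into the matrix, and osteoclasts at the bone surface release acid and cathepsin K.

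Promoters were examined for the motifs through which these factors are known to act. RefSeq promoters of assembly GRCr8, from 250 bases before to 50 bases after the annotated start, were matched for 32 of the 39 genes, all but Arsa, Arsb, Asah1, Ctsb, Hexa, Ppt1 and Psap. Both strands were searched for TCACGTG, the core of the CLEAR motif, and for TCATGTG, the M-box. The CLEAR core was present in 7 of the 32 promoters (21.9%), against 3.2% of all 33469 promoters of that table. The M-box was present in 5 of the 32 (15.6%), against 3.56% of all promoters. Other lysosomal lists held both motifs too: the CLEAR core was in 2 of 15 promoters of other hydrolases (13.3%) and 3 of 18 of other membrane proteins (16.7%), and the M-box in 4 of 15 (26.7%) and 3 of 18 (16.7%). In promoters of macrophage markers the CLEAR core was in 0 of 14 and the M-box in 2 of 14 (14.3%), so the M-box share is not particular to the lysosomal genes. The shorter CACGTG, which the CLEAR core contains, was present in 8 of 32 (25.0%) against 6.42%, and Cd63 was the member that had it outside a CLEAR core. Below are the match nearest to the start in each of the 12 promoters and 20 bases on either side, 5′ to 3′ on the gene's strand, with the match in capitals. The first 7 hold the CLEAR core and the last 5 the M-box.
Lamp1, chr16:83075075-83075122, minus strand: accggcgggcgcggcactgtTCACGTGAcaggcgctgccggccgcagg
Mcoln1, chr12:6358241-6358288, plus strand: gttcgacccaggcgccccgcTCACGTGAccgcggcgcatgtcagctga
Ctsd, chr1:206968805-206968852, minus strand: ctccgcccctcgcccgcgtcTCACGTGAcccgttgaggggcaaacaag
Sgsh, chr10:105112020-105112066, minus strand: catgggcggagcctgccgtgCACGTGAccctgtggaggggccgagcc
Gaa, chr10:105028268-105028314, plus strand: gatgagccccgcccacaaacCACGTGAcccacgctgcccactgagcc
Glb1, chr8:122963597-122963643, plus strand: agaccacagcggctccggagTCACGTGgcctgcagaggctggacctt
Idua, chr14:1190906-1190952, minus strand: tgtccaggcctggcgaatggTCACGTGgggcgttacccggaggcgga
Tpp1, chr1:169515939-169515985, minus strand: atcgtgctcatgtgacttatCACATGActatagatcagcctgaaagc
Gpnmb, chr4:79341086-79341132, plus strand: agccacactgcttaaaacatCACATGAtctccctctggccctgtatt
Ctss, chr2:185775379-185775425, plus strand: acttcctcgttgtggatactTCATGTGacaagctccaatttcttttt
Cd63, chr7:1922008-1922054, plus strand: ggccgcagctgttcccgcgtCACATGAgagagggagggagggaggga
Grn, chr10:87887618-87887664, plus strand: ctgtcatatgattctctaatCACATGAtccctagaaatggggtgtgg

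Lamp1, which encodes one of the most abundant proteins of the lysosomal membrane, had the highest number of CLEAR cores, 5 in its 300 bases. Mcoln1, the calcium channel of the lysosome, and Ctsd, the aspartic protease cathepsin D, had 2 each. Gpnmb, a membrane glycoprotein of macrophages, osteoclasts and pigment cells, had 1 M-box, whose first base lay 22 bases before the start. The full 300 bases of the Gpnmb promoter are shown because this gene had the lowest fold change of the list under the antibody, and those of Lamp1 because of its matches. A match describes letters in a window and not a site that a factor was measured to bind.
Gpnmb, chr4:79340878-79341177, plus strand: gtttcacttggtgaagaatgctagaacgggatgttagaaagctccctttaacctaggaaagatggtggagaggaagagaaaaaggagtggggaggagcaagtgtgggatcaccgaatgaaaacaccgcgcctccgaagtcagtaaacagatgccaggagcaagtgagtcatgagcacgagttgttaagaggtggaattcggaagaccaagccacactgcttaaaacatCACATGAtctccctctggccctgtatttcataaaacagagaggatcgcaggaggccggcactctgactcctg
Lamp1, chr16:83075014-83075313, minus strand: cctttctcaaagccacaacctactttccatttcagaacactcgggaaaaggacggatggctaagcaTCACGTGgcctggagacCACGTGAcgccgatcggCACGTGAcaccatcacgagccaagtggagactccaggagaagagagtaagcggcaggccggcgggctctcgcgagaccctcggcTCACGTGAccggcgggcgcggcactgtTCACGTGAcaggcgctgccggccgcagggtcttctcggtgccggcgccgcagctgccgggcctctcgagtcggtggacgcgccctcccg

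**Figure D1:**
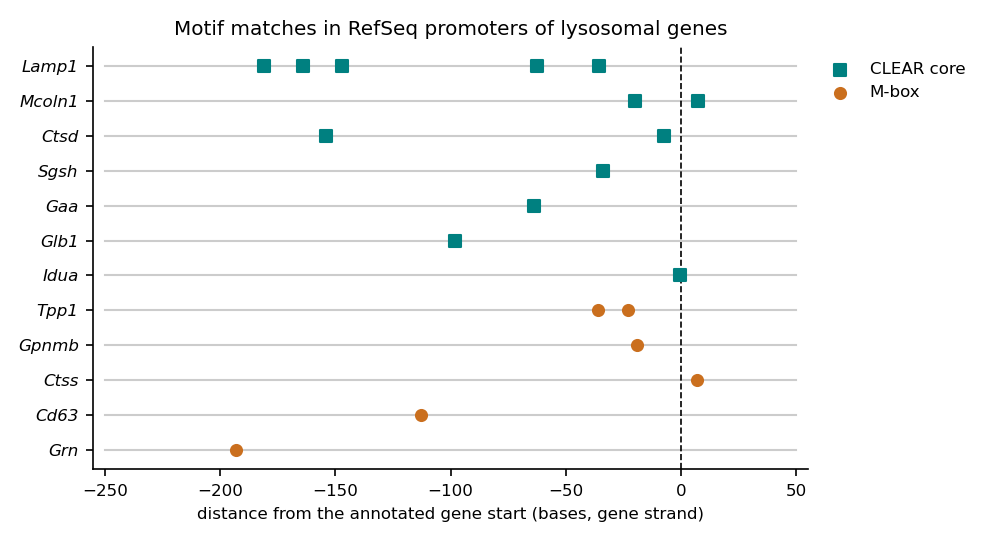
Positions of CLEAR cores (squares) and M-boxes (circles) in the 12 lysosomal promoters that hold at least 1, by distance in bases from the annotated gene start on the gene's strand, with each grey line spanning the 300 bases searched. Lamp1 has 5 matches, while Mcoln1, Ctsd and Tpp1 have 2 each and the other 8 genes have 1.

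Libraries held 31172215 to 34084345 counts. Values below are CPM, counts scaled to the TMM-adjusted total of their library, and levels are compared between genes only by FPKM, which divides by gene length. Prg4, which encodes the joint lubricant lubricin of the synovial lining, was detected in all 15 libraries at 2714 to 11205 CPM. Skeletal muscle transcripts summed to 8569 CPM in control replicate 2 and 16974 CPM in AIA replicate 19, against at most 61.0 CPM elsewhere. Fibroblast transcripts summed to 35275 to 46439 CPM in AIA replicates 18, 19 and 23 and to 10488 to 22068 CPM in the other 12 libraries. These 4 libraries stand apart, and counts without them are given beside the counts they change. In tissue RNA, fewer cells of a type and less RNA per cell cannot be told apart.

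Lysosomal transcripts were abundant in every library. Together the 39 genes took 0.988% to 1.67% of all counts. Ctsb, the cysteine protease cathepsin B, had the highest mean FPKM at 1140. It was followed by Psap, the precursor of the saposins that help enzymes reach sphingolipids, at 855 FPKM, and Ctsl, the cysteine protease cathepsin L, at 632 FPKM. At the other end were the heparan sulfate sulfatase Sgsh at 4.17 FPKM, and the glycosidase Gla and the cholesterol exporter Npc1, both at 10.2 FPKM. Within a group, the highest or lowest values of many members fell in the same library. Whether the members varied together was not tested. Control replicate 11 held the highest value of its group for 32 of 39 genes and control replicate 17 the lowest for 24. AIA replicate 23 was highest for 20 and AIA replicate 5 lowest for 24, while antibody replicate 12 was highest for 23 and antibody replicate 3 lowest for 26. The median coefficient of variation over the members was 12.1% for control, 14.7% for AIA and 11.4% for antibody libraries.

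**Figure D2:**
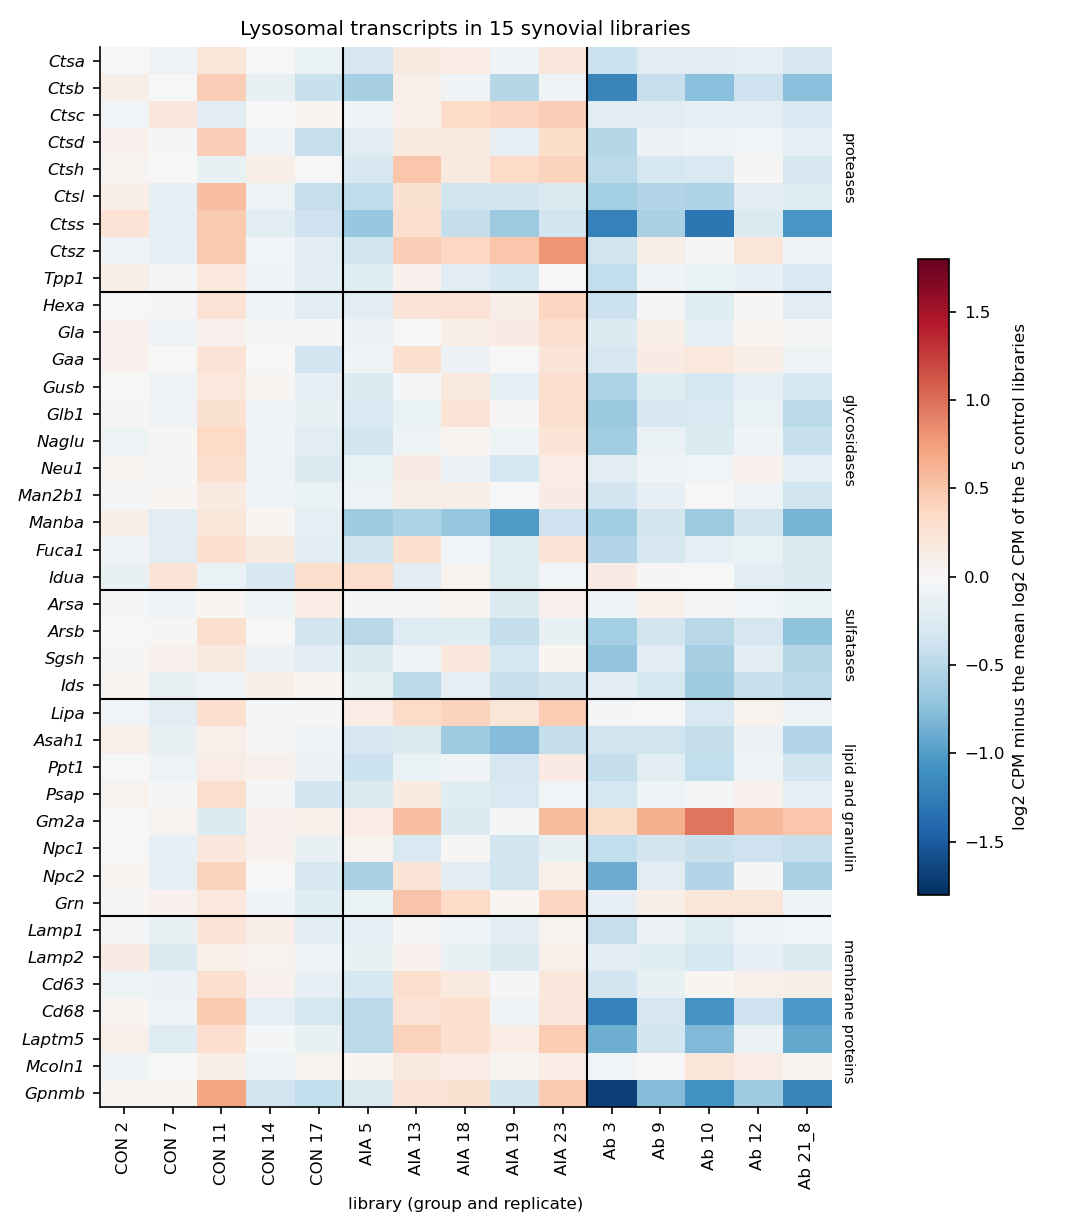
Difference of log2 CPM from the mean of the 5 control libraries, for the 39 lysosomal genes (1 line per gene, ordered by role) in the 15 libraries (1 column each). Antibody replicates 3, 10 and 21_8 are the bluest columns for Gpnmb, Cd68 and Ctss, Gm2a is red in all 5 antibody libraries, and Manba is blue in all AIA and antibody libraries.

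The summed level of the lysosomal genes overlapped between the 3 groups, while most members had a negative fold change under the antibody. Summed over the members, control libraries had 11486 to 16902 CPM (13814 ± 1983, mean ± SD, n = 5), AIA libraries 11044 to 15479 (13144 ± 1892) and antibody libraries 9574 to 12953 (11491 ± 1261), and all 3 ranges overlapped. Psap, Ctsb and Ctsl, the 3 members of highest CPM, held a large part of this sum: control replicate 2 had 14179 CPM with them and 7837 without. Ratios of group means were 0.951 in AIA against control, 0.874 in antibody against AIA and 0.832 in antibody against control. Without these 3 members the ratios were 1.01, 0.88 and 0.891. The log2 fold change in AIA against control was negative for 20 of 39 genes, with a median of -0.01. In antibody against AIA 34 of 39 were negative with a median of -0.24, and in antibody against control 35 of 39 with a median of -0.26. Over all 16046 genes tested, 8138, 8024 and 7950 were negative, and the medians were -0.0034, 0 and 0.0029. Neighbouring comparisons share libraries, so their values stand side by side and are not independent.

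Few single members were called in AIA against control, and more were called in the antibody comparisons. A gene was called at an edgeR quasi-likelihood adjusted p under 0.05, over all genes tested. In AIA against control, 0 members were called higher and 2 lower, Manba and Asah1, where 5.09% and 3.45% of all genes tested were called. Beside the 0, 3 members were higher at an unadjusted p under 0.05, and DESeq2 called 1 higher, Lipa. The count of higher calls in AIA became 4 without AIA replicate 5 and 1 without control replicate 11. Without the muscle-bearing control replicate 2 and AIA replicate 19, 1 member was called lower. Without AIA replicates 18, 19 and 23, which leaves 2 AIA libraries, 0 were called lower, with 4 at an unadjusted p under 0.05, while among all genes 208 were called higher and 128 lower.

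In antibody against AIA, 6 members were called lower, Ctsc, Ctsh, Lipa, Cd68, Laptm5 and Gpnmb, or 6 of 39 where 3.99% of all genes tested were called lower. No member was called higher, where 1.83% of all genes were, with 1 member higher at an unadjusted p under 0.05 and 0 by DESeq2. DESeq2 called 10 lower, the same 6 with Ctsa, Gusb, Glb1 and Npc1. The libraries were below AIA without overlap for 3 members, Ctsc, Lipa and Gpnmb, against 2.2% of all genes. This count of 6 depended on single libraries. It became 0 without antibody replicate 10, and 1 without AIA replicate 18, 19 or 23 or antibody replicate 21_8. It was 2 without antibody replicate 3 and 11 without AIA replicate 5. Without control replicate 2 and AIA replicate 19, or with a fit to AIA and antibody libraries alone, 1 was called. Without AIA replicates 18, 19 and 23 together, 0 were called lower in edgeR, with 7 at an unadjusted p under 0.05, while 1 gene was called lower and 0 higher among all genes.

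In antibody against control, 10 members were called lower where 4.66% of all genes tested were, and 1 higher, Gm2a, where 3.38% were. The 10 were Ctsb, Ctss, Manba, Arsb, Sgsh, Ids, Asah1, Npc1, Cd68 and Gpnmb, and DESeq2 called 11 lower and 1 higher. Antibody libraries lay below control without overlap for 6 members, Ctsa, Gusb, Manba, Ids, Npc1 and Gpnmb, against 5.27% of all genes. The number of lower calls was 5 without control replicate 2 or 11, or antibody replicate 3, 10 or 21_8, and 12 without antibody replicate 12. The call of Gm2a was lost without control replicate 2 or 11, or antibody replicate 9 or 10. Without both muscle-bearing libraries, 5 were called lower and 0 higher.

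**Figure D3:**
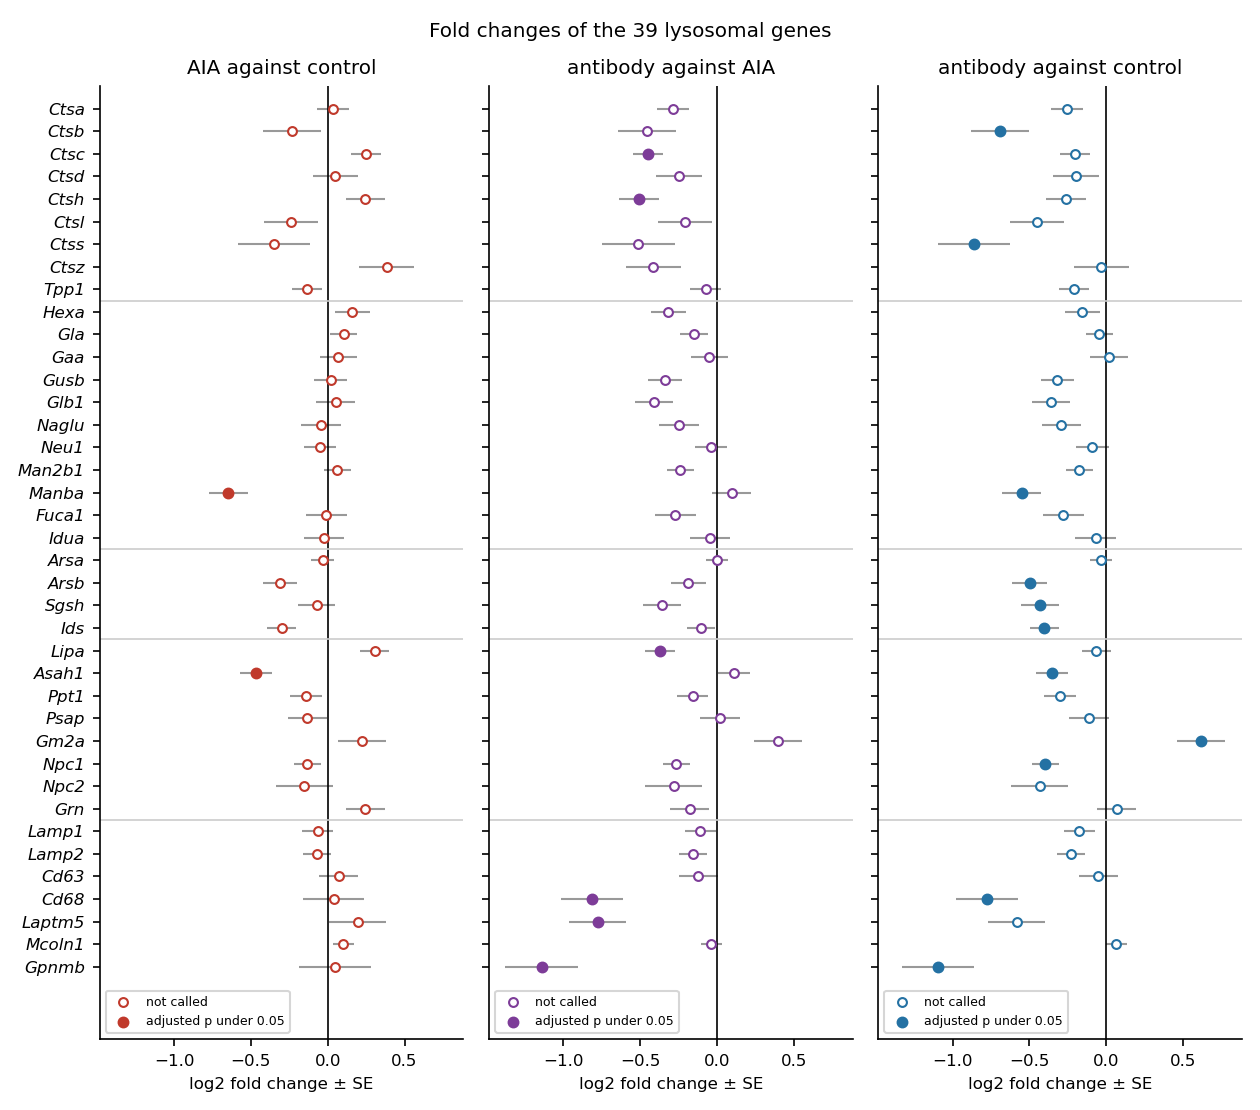
Log2 fold change with its SE for each of the 39 genes in AIA against control, antibody against AIA and antibody against control, with filled points at an edgeR adjusted p under 0.05. Filled points number 2, 6 and 11, and Gm2a is the filled point to the right of 0.

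Membrane proteins held the lowest fold changes under the antibody against AIA, in Gpnmb, Cd68 and Laptm5, which are known from immune and phagocytic cells. Of 7 genes, 3 were called lower in antibody against AIA and 2 in antibody against control, with 0 higher in either by edgeR, at an unadjusted p under 0.05 or by DESeq2. Among all genes tested, 3.99% and 4.66% were called lower in these comparisons. None of the 7 was called in AIA against control in either direction, at an unadjusted p under 0.05 and by DESeq2 alike. Libraries are listed as control replicates 2, 7, 11, 14 and 17, AIA replicates 5, 13, 18, 19 and 23, and antibody replicates 3, 9, 10, 12 and 21_8. Gpnmb, the glycoprotein whose promoter is shown above, was measured at 297, 298, 475, 225 and 213 CPM in control, 242, 338, 350, 229 and 399 in AIA, and 90.1, 169, 136, 185 and 127 under the antibody. All 5 antibody libraries lay below every control and every AIA library. The log2 fold change was -1.14 ± 0.24 (SE) against AIA, 2.21-fold lower, with an edgeR adjusted p of 0.0187. Against control it was -1.09 ± 0.24, 2.13-fold lower, with an edgeR adjusted p of 0.0113, and AIA against control was 0.05 ± 0.23. Without antibody replicate 10 the adjusted p against AIA was 0.0527, and against control the call was kept with any 1 library left out, at 0.0342 or lower. Without AIA replicates 18, 19 and 23 together, the log2 fold change of Gpnmb against AIA was -1.04 (edgeR adjusted p = 0.563).

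Cd68, a glycoprotein of late endosomes and lysosomes used as a macrophage marker, was measured at 82, 75.8, 110, 70.9 and 63.7 CPM in control, 56.9, 93.5, 96.4, 75.7 and 91.2 in AIA, and 33.9, 63.9, 38, 60.8 and 38.7 under the antibody. Antibody replicate 9 reached into the range of both other groups, and replicate 12 into that of AIA alone. Replicates 3, 10 and 21_8 lay below both ranges. Cd68 fell by 0.81 ± 0.20 on the log2 scale against AIA (edgeR adjusted p = 0.0328) and by 0.77 ± 0.20 against control (edgeR adjusted p = 0.028). Laptm5, a lysosomal transmembrane protein of blood cells, was measured at 111, 87.9, 128, 102 and 94.1 CPM in control, 74.5, 138, 128, 114 and 143 in AIA, and 56.3, 81.3, 59.8, 96.8 and 54.6 under the antibody. The same 3 antibody libraries were the lowest, and AIA replicate 5 lay among the antibody libraries. The log2 fold change of Laptm5 was -0.78 ± 0.19 against AIA (edgeR adjusted p = 0.0294) and -0.58 ± 0.19 against control (adjusted p = 0.0689, not called by edgeR). Both calls against AIA were lost without AIA replicate 18, 19 or 23 or antibody replicate 3, 10 or 21_8, with adjusted p of 0.0571 to 0.0895 for Cd68 and 0.0537 to 0.081 for Laptm5. That of Cd68 against control was lost without control replicate 2 or 11 or the same 3 antibody libraries (0.0611 to 0.0841). Without both muscle-bearing libraries, the edgeR adjusted p of Cd68 was 0.0728 against AIA and 0.0656 against control. That of Laptm5 against AIA was 0.0721.

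The other 4 membrane genes were not called in any comparison. Lamp1 and Lamp2, the main proteins of the lysosomal limiting membrane, had log2 fold changes of -0.11 ± 0.10 and -0.16 ± 0.09 against AIA. Cd63, a tetraspanin of late endosomes, was at -0.12 ± 0.13. Mcoln1 was the steadiest of these, between 28.4 and 35 CPM in all 15 libraries, with log2 fold changes of 0.10, -0.04 and 0.07 in AIA against control, antibody against AIA and antibody against control. Of the 7 genes with a CLEAR core, Lamp1, Mcoln1, Ctsd, Gaa and Idua were not called in any comparison by edgeR or DESeq2, Glb1 was called lower in antibody against AIA by DESeq2 alone (adjusted p = 0.0282), and Sgsh was called in antibody against control by both. Of the 5 with an M-box, Gpnmb was called lower in both antibody comparisons and Ctss in antibody against control. Tpp1, Cd63 and Grn were not called. Among all 39 members, edgeR called 6 lower in antibody against AIA and 10 in antibody against control. Over all genes tested, these shares were 3.99% and 4.66%. Whether the motifs bear on the calls was not tested.

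**Figure D4:**
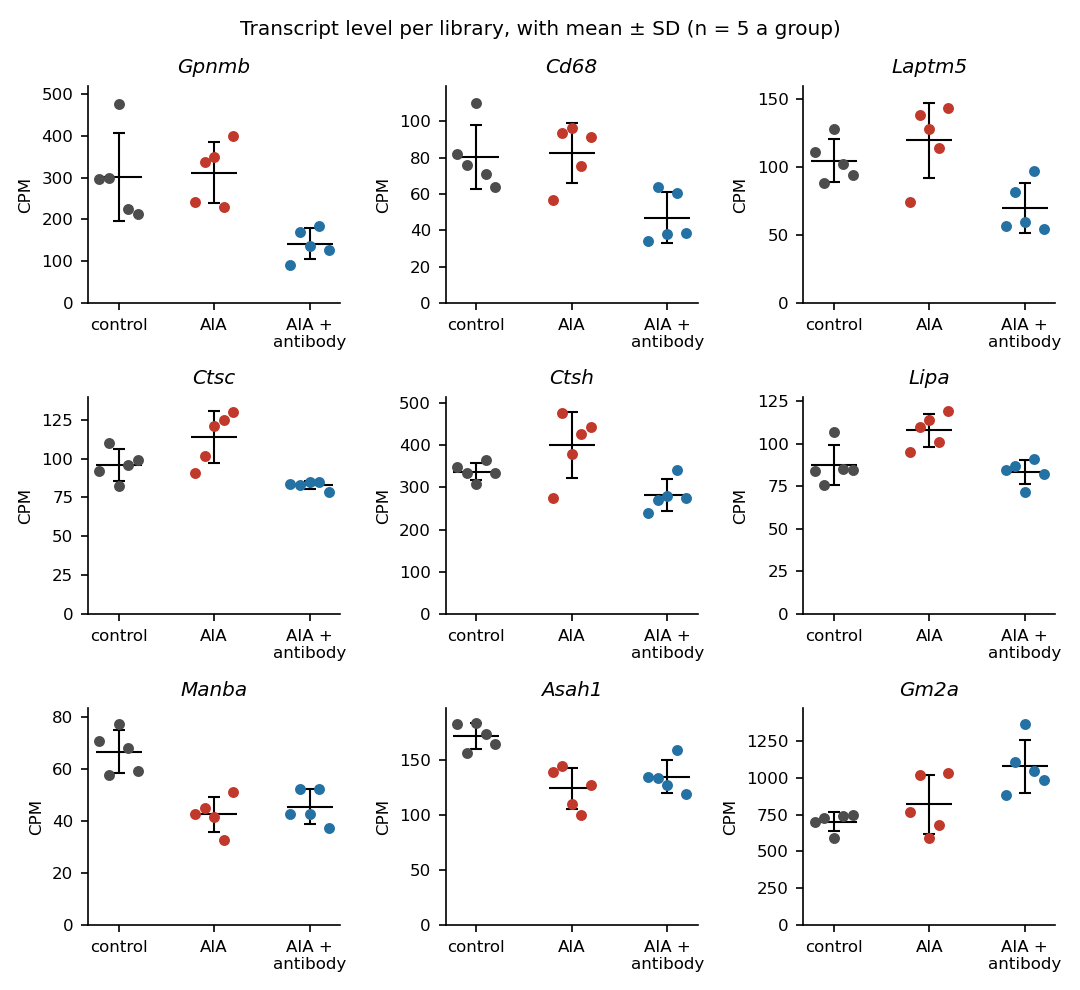
CPM per library for 9 lysosomal genes in the 5 control, 5 AIA and 5 antibody libraries (points), with the mean (horizontal line) and SD (error bar). Antibody libraries lie below both other groups for Gpnmb, below AIA for Ctsc and Lipa, and above control for Gm2a, while AIA and antibody libraries both lie below control for Manba.

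Most macrophage markers had a negative fold change in the antibody comparisons, as Gpnmb, Cd68 and Laptm5 did. By edgeR, 15 of 19 were not called in either of these 2 comparisons. All 19 macrophage genes of a marker list in the table had counts, and their summed level was 3108 to 5543 CPM in control, 2888 to 5276 in AIA and 1900 to 3684 under the antibody, and these ranges overlapped. Antibody replicates 10, 3 and 21_8 had the lowest sums (1900, 2003 and 2162 CPM), and replicate 12 the highest of its group. Of the 19 genes, 4 were called lower and 0 higher in antibody against AIA, with a median log2 fold change of -0.60, and 4 lower and 0 higher in antibody against control, with a median of -0.68. In the same order, 17 and 19 were negative, 12 and 13 were lower at an unadjusted p under 0.05, and DESeq2 called 10 and 12 lower. AIA against control had 1 higher and 1 lower, with 17 not called. Among all genes tested, edgeR called 5.09% higher and 3.45% lower in AIA against control. The shares were 1.83% and 3.99% in antibody against AIA, and 3.38% and 4.66% in antibody against control. Mrc1, the mannose receptor, had a log2 fold change of -0.81 ± 0.19 against AIA (edgeR adjusted p = 0.0286), and Adgre1, the F4/80 antigen, -1.06 ± 0.19 (edgeR adjusted p = 0.012). Among 10 genes of all leukocytes, AIA against control had 2 higher and 0 lower, antibody against AIA 0 and 7, and antibody against control 1 and 0. Fibroblast transcripts summed to 10488 to 13024 CPM under the antibody, below all control (16333 to 22068) and all AIA libraries (14021 to 46439). Osteoclast markers, 10 genes that share the Gpnmb-expressing lineage, summed to 121 to 138 CPM in control, 117 to 265 in AIA and 104 to 158 under the antibody, and overlapped. Of 6 tested, 1 was higher and 0 lower in AIA against control. Antibody against AIA had 0 and 1, and antibody against control 3 and 0. The median log2 fold changes of these osteoclast markers were 0.93, -0.49 and 1.07 in the same order. The part of these cell types in the lysosomal values was not tested.

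**Figure D5:**
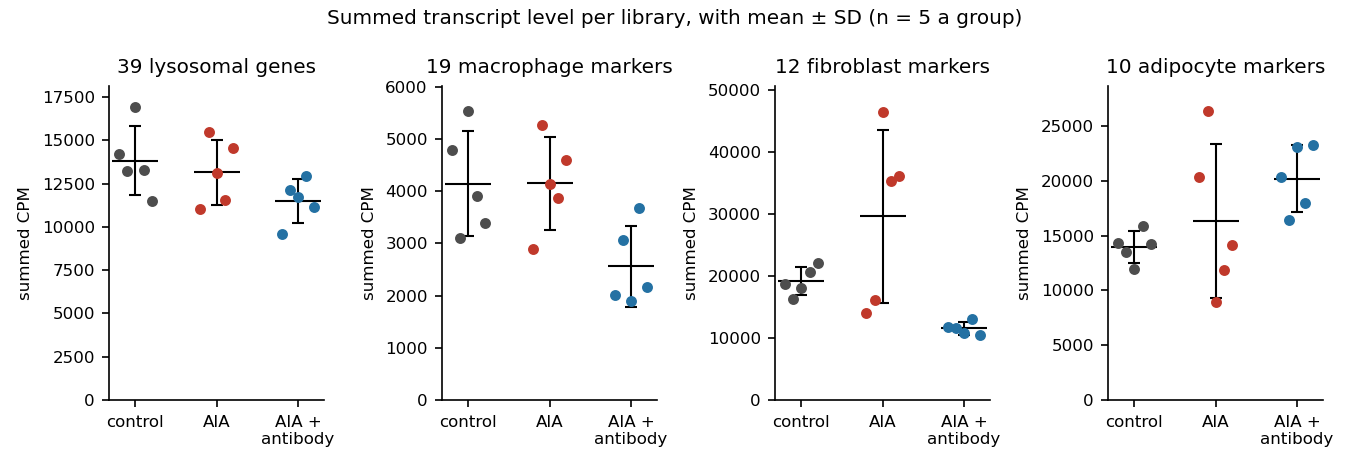
Summed CPM per library of the 39 lysosomal genes and of 3 cell type marker lists (macrophage, fibroblast and adipocyte), with mean and SD of the 5 libraries in each group. Lysosomal and macrophage sums overlap between groups, fibroblast sums of the antibody group lie below both others, and adipocyte sums of the antibody group lie above control.

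Proteases had 2 of 9 genes called lower in antibody against AIA and another 2 in antibody against control, and none was called higher. Among all genes tested, 3.99% and 4.66% were called lower in these comparisons. DESeq2 called 3 and 2 proteases lower. None of the 9 was called in AIA against control by edgeR or DESeq2, with 2 higher and 0 lower at an unadjusted p under 0.05. Ctsc, the dipeptidyl peptidase that activates the serine proteases of neutrophils and cytotoxic lymphocytes, was measured at 91.8, 110, 82.6, 95.8 and 99 CPM in control, 90.7, 102, 121, 125 and 130 in AIA, and 83.9, 83.1, 84.8, 85.2 and 78.8 under the antibody. All antibody libraries lay below all AIA libraries and were close to each other. Ctsc fell by 0.45 ± 0.10 on the log2 scale against AIA (edgeR adjusted p = 0.0206), and was at 0.25 ± 0.10 in AIA against control (adjusted p = 0.144). Ctsh, an aminopeptidase of the cathepsin family, was measured at 348, 334, 307, 364 and 335 CPM in control, 276, 476, 379, 426 and 444 in AIA, and 240, 270, 280, 342 and 276 under the antibody. AIA replicate 5 sat with the antibody libraries and the other AIA libraries above them. Ctsh was at -0.51 ± 0.13 on the log2 scale against AIA (edgeR adjusted p = 0.0353). Without AIA replicate 18, 19 or 23, or antibody replicate 10 or 21_8, the adjusted p of Ctsc was 0.05 to 0.0576. That of Ctsh was 0.0643 to 0.0872 without the same libraries or antibody replicate 3 or 9. Without both muscle-bearing libraries, the edgeR adjusted p against AIA was 0.0698 for Ctsc and 0.102 for Ctsh. For T and NK cells, 9 markers were tested. AIA against control had 7 higher and 0 lower, antibody against AIA 0 and 5, and antibody against control 2 and 1. Their median log2 fold changes were 2.09, -1.78 and 0.67 in the same order. For neutrophils, 10 markers were tested, and the calls in that order were 5 and 0, 0 and 1, and 9 and 0. The neutrophil medians were 3.38, 0.30 and 3.19. The shares called over all genes tested are those given with the macrophage markers. The part of these cell types in the Ctsc level was not tested.

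Ctsb and Ctss were lower in antibody against control. Ctsb was measured at 2838, 2639, 3591, 2417 and 1999 CPM in control, 1743, 2820, 2523, 1846 and 2536 in AIA, and 1164, 1993, 1579, 2041 and 1572 under the antibody. Control replicate 17 lay among the antibody libraries, and the other 4 control libraries lay above them. Ctsb was at -0.69 ± 0.19 on the log2 scale against control (edgeR adjusted p = 0.0361), while AIA against control was -0.23 ± 0.19 and antibody against AIA -0.46 ± 0.19, neither called. Ctss, the cathepsin of antigen-presenting cells that trims the invariant chain, was measured at 554, 411, 640, 400 and 355 CPM in control, 287, 568, 341, 293 and 362 in AIA, and 199, 307, 187, 384 and 223 under the antibody. Antibody replicate 12 was above control replicate 17, and the other antibody libraries were below all controls. The log2 fold change of Ctss was -0.86 ± 0.24 against control (edgeR adjusted p = 0.0364), with -0.51 ± 0.24 against AIA. The call of Ctss against control was lost without control replicate 2 or 11 or antibody replicate 3, 10 or 21_8 (0.0766 to 0.0993). That of Ctsb was lost without these or control replicate 7 or 14 (0.0529 to 0.0921). Without both muscle-bearing libraries, the edgeR adjusted p against control was 0.0793 for Ctsb and 0.0849 for Ctss.

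Ctsl was measured at 1068, 889, 1436, 925 and 742 CPM in control, 720, 1191, 770, 776 and 824 in AIA, and 648, 684, 671, 854 and 847 under the antibody. Its groups overlapped, and its log2 fold changes of -0.24 ± 0.18, -0.21 ± 0.18 and -0.45 ± 0.18 were not called. The other proteases, Ctsa, Ctsd, Ctsz and Tpp1, were not called by edgeR either, while DESeq2 gave Ctsa an adjusted p of 0.0471 in antibody against AIA. Ctsz, a carboxypeptidase, had the highest value of the list in AIA against control, 0.38 ± 0.18 with an edgeR adjusted p of 0.234. Ctsa, which protects other lysosomal enzymes from degradation, lay below control in all 5 antibody libraries, with a log2 fold change of -0.26 ± 0.10 and an edgeR adjusted p of 0.15.

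Among 11 glycosidases, which remove sugars from glycoproteins, glycolipids and glycosaminoglycans, Manba was the gene called by edgeR. It encodes beta-mannosidase, the last enzyme in the breakdown of N-linked glycans. Manba was measured at 71, 57.8, 77.3, 68.1 and 59.3 CPM in control, 42.6, 45, 41.5, 32.6 and 51.3 in AIA, and 42.8, 52.5, 42.7, 52.4 and 37.2 under the antibody. All AIA and all antibody libraries lay below all control libraries, and these 2 groups overlapped each other. Manba fell by 0.65 ± 0.13 on the log2 scale in AIA against control, 1.57-fold, with an edgeR adjusted p of 0.00515. Antibody against control was -0.55 ± 0.13 (edgeR adjusted p = 0.014), and antibody against AIA was 0.09 ± 0.12 and not called. Both calls held with any 1 library left out, at adjusted p of at most 0.0167 and 0.0412. Without AIA replicates 18, 19 and 23 together, the log2 fold change in AIA was -0.61 with an adjusted p of 0.057. In antibody against AIA 0 glycosidases were called by edgeR, with 0 higher and 4 lower at an unadjusted p under 0.05 and 2 lower by DESeq2, Glb1 and Gusb. Glb1, the beta-galactosidase, was at -0.41 ± 0.13 (edgeR adjusted p = 0.0664), and Gusb, the beta-glucuronidase, at -0.34 ± 0.11 (edgeR adjusted p = 0.0743). Gaa, Gla, Neu1, Idua, Hexa, Naglu, Man2b1 and Fuca1 had log2 fold changes from -0.32 to 0.16 over the 3 comparisons.

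Sulfatases, which take sulfate from glycosaminoglycans and sulfolipids, were called lower in antibody against control for 3 of 4 genes, where 4.66% of all genes tested were. Summed, they stood at 314 to 346 CPM in control, 254 to 309 in AIA and 239 to 284 under the antibody, so both AIA and antibody libraries lay below all controls. Arsb, which acts on dermatan and chondroitin sulfate, was measured at 86.1, 86.5, 104, 85.9 and 68.2 CPM in control, 60.2, 72.4, 73.2, 63.7 and 77.5 in AIA, and 55.8, 67.7, 60.2, 69.3 and 51.9 under the antibody. Control replicate 17 fell between the antibody libraries. Ids, which acts on heparan and dermatan sulfate, was measured at 141, 124, 131, 147 and 140 CPM in control, 124, 98.3, 122, 103 and 108 in AIA, and 120, 110, 87.1, 103 and 97.2 under the antibody. All antibody libraries were below all controls. Against control the antibody group was at -0.50 ± 0.11 for Arsb (edgeR adjusted p = 0.0133) and -0.40 ± 0.09 for Ids (edgeR adjusted p = 0.0158), and both were called with any 1 library left out. In AIA against control they were at -0.31 ± 0.11 (adjusted p = 0.105) and -0.30 ± 0.09 (adjusted p = 0.0602), not called by edgeR, while DESeq2 gave 0.0266 for Ids. Sgsh, which acts on heparan sulfate, was the third called, at -0.43 ± 0.12 (edgeR adjusted p = 0.0424). Its call was lost without control replicate 2, 7, 11 or 14 or antibody replicate 3, 10 or 21_8 (0.0612 to 0.118), without the muscle-bearing libraries (0.0798) and without a filter on low counts. Arsa, which acts on the myelin lipid sulfatide, was at -0.03, 0.00 and -0.03 in the 3 comparisons. Beside the 0 sulfatases called in AIA against control by edgeR, 0 were higher and 2 lower at an unadjusted p under 0.05 and 1 was lower by DESeq2. In antibody against AIA 0 were called by either tool, with 1 lower at an unadjusted p under 0.05.

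Genes of lipid breakdown and cholesterol export moved in both directions. Asah1, the acid ceramidase, was measured at 182, 156, 183, 173 and 164 CPM in control, 139, 144, 110, 100 and 127 in AIA, and 134, 133, 127, 159 and 119 under the antibody. Every AIA library was below every control, and antibody replicate 12 was above control replicate 7. Asah1 fell by 0.47 ± 0.10 on the log2 scale in AIA against control (edgeR adjusted p = 0.0121), and was at -0.38 (adjusted p = 0.0751) without the muscle-bearing libraries and at -0.28 (adjusted p = 0.285) without AIA replicates 18, 19 and 23. In antibody against control it was at -0.35 ± 0.10 (edgeR adjusted p = 0.0487). That second call was lost in 8 of the 10 fits that left out 1 library, all but those without control replicate 7 or antibody replicate 12, at 0.0661 to 0.113.

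Lipa, the acid lipase that frees cholesterol and fatty acids from lipoprotein lipids, was measured at 84, 75.8, 107, 85 and 84.8 CPM in control, 95.3, 110, 114, 101 and 119 in AIA, and 84.8, 87.1, 71.8, 90.9 and 82.2 under the antibody. All antibody libraries were below all AIA libraries, and control replicate 11 lay among the AIA values. Lipa fell by 0.37 ± 0.10 on the log2 scale against AIA (edgeR adjusted p = 0.0351). In AIA against control it was at 0.31 ± 0.10, with an adjusted p of 0.059 by edgeR and 0.0225 by DESeq2. Without AIA replicate 18, 19 or 23, or antibody replicate 3, 9, 10 or 21_8, the adjusted p against AIA was 0.0517 to 0.0933. It was 0.0765 by edgeR without both muscle-bearing libraries. Npc1, the membrane exporter of lysosomal cholesterol, was measured at 59.4, 53.8, 69, 62.8 and 54.5 CPM in control, 62.2, 49.1, 60.3, 47.2 and 54.3 in AIA, and 43.9, 47.6, 45.3, 45.9 and 44.8 under the antibody. The 5 antibody libraries lay in a narrow band below all controls. The log2 fold change against control was -0.40 ± 0.09 (edgeR adjusted p = 0.0127, at most 0.0351 with any 1 library left out), and -0.26 ± 0.09 against AIA (adjusted p = 0.0848).

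Gm2a was the member called higher by edgeR. It encodes the GM2 activator, which presents gangliosides to hexosaminidase, and at 431 FPKM it was the fourth in level. Gm2a was measured at 700, 728, 592, 740 and 746 CPM in control, 764, 1019, 591, 682 and 1035 in AIA, and 880, 1104, 1364, 1046 and 986 under the antibody. Every antibody library was above every control, and AIA libraries spanned both ranges. Gm2a rose by 0.62 ± 0.16 on the log2 scale against control, 1.53-fold higher (edgeR adjusted p = 0.0254), and 0.39 ± 0.16 against AIA (adjusted p = 0.142). Without control replicate 2 or 11, or antibody replicate 9 or 10, the adjusted p against control was 0.0503 to 0.0732, and it was 0.0591 without both muscle-bearing libraries. Adipocyte transcripts, summed over 10 genes, were also above control in all antibody libraries, 16405 to 23233 against 11915 to 15880 CPM, and 8907 to 26416 in AIA. Gene by gene, all 10 were positive in antibody against control, with a median log2 fold change of 0.50. Of the 10, 0 were called by edgeR, 1 was higher by DESeq2, and 3 lay above control without overlap. Over all 16046 genes tested, 684 lay above control without overlap. The part of adipocyte transcripts in the Gm2a level was not tested. Psap was measured at 2435, 2317, 2909, 2312 and 1848 CPM in control, 1958, 2619, 2015, 1929 and 2262 in AIA, and 1878, 2203, 2296, 2461 and 2098 under the antibody. Its groups overlapped, with log2 fold changes of -0.13 ± 0.13, 0.02 ± 0.13 and -0.11 ± 0.13. Npc2, the soluble partner of Npc1, Grn, the progranulin precursor, and Ppt1, a palmitoyl thioesterase, were not called.

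Lysosomal genes outside the 39 were counted in the same way, from lists chosen by function. Among all genes tested, edgeR called 5.09% higher and 3.45% lower in AIA against control. The shares were 1.83% and 3.99% in antibody against AIA, and 3.38% and 4.66% in antibody against control. They apply to each list that follows, and 1 call among 19 or 23 genes lies near most of them. Of 23 other hydrolases tested, AIA against control gave 0 higher and 1 lower, antibody against AIA 0 and 2, and antibody against control 2 and 3. Ctsk, the collagen-cleaving cathepsin of osteoclasts and activated fibroblasts, was at 165 to 207 CPM in AIA replicates 18, 19 and 23 and at 47.2 to 99 CPM in the other 12 libraries, and fell by 1.33 ± 0.23 on the log2 scale in antibody against AIA (edgeR adjusted p = 0.011). Those 3 AIA libraries are the ones with the highest fibroblast sums. Of 19 other membrane proteins tested, AIA against control gave 1 higher and 1 lower, and the other comparisons 0 and 1 each. Slc11a1, the metal transporter of phagosomes also known as NRAMP1, rose by 1.65 ± 0.24 in AIA against control (edgeR adjusted p = 0.00102) and fell by 1.19 ± 0.24 in antibody against AIA (edgeR adjusted p = 0.0161), at 2.57 to 3.8 CPM in control, 7.11 to 14.3 in AIA and 2.44 to 6.48 under the antibody.

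The proton pump had 0 of 17 tested subunits higher and 3 lower in AIA against control, Atp6v1e1, Atp6v1h and Atp6ap1, with log2 fold changes of -0.36, -0.30 and -0.32. In antibody against control 5 were lower. In antibody against AIA 0 were called by edgeR and DESeq2, with 0 higher and 2 lower at an unadjusted p under 0.05. None of 16 genes that sort enzymes to the lysosome was called by edgeR in any comparison. At an unadjusted p under 0.05, AIA against control had 1 higher and 1 lower, antibody against AIA 2 and 4, and antibody against control 1 and 1. In the same order, DESeq2 called 0 and 0, 1 and 1, and 0 and 1. Of 5 cathepsin inhibitors, 2 were higher in AIA against control, Cst7, cystatin F, at 1.59 ± 0.32 (edgeR adjusted p = 0.00733) and Cd74, the invariant chain, at 1.07 ± 0.22 (edgeR adjusted p = 0.00765).

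Of the 16 genes of the MiT/TFE factors and their nutrient signalling, 1 was lower in AIA against control, 1 in antibody against AIA and 3 in antibody against control, with 0 higher in any by edgeR. Mitf, a factor that binds the M-box, was measured at 71.2, 61.1, 64.2, 68.2 and 61.8 CPM in control, 51.2, 49.1, 41.6, 43.5 and 44.4 in AIA, and 41, 34.4, 34.2, 50.3 and 38.1 under the antibody. All AIA and all antibody libraries lay below all controls. Mitf fell by 0.51 ± 0.10 on the log2 scale in AIA against control (edgeR adjusted p = 0.00626) and by 0.72 ± 0.10 in antibody against control (edgeR adjusted p = 0.000808). In antibody against AIA, Mitf was at -0.22 ± 0.10 and not called (edgeR adjusted p = 0.212). Tfec, a relative of Mitf found in macrophages, was low, at 0.992 to 1.91 CPM under the antibody and 1.97 to 6.63 in AIA. It fell by 1.38 ± 0.31 in antibody against AIA (edgeR adjusted p = 0.0239). Tfec was not called in AIA against control (0.71 ± 0.31) or antibody against control (-0.66 ± 0.31). Tfeb was at 0.13, -0.07 and 0.06 and Tfe3 at -0.14, 0.01 and -0.13 in the 3 comparisons, and neither was called.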

How the data were processed

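The authors deposited raw counts per gene symbol and FPKM values, 1 column per library. The deposited FPKM equalled the count over a fixed gene length and the library total, within 0.1% for 100% of 291027 values. No aligner, counter or strandedness is stated in the labels. GRCm38 and mm10, both mouse builds, are named in the submitters' processing notes, so the annotation is uncertain, genes are given by symbol, and promoter coordinates refer to RefSeq GRCr8 alone. In GRCr8, 14 of the 39 genes overlap another gene of the count table, among them Arsb, Sgsh, Psap and Npc1, and reads could be split or shared there.

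Counts were tested in R 4.3.3 with edgeR 4.0.16 (filterByExpr, TMM, quasi-likelihood F test, 1 fit over 15 libraries, Benjamini-Hochberg over 16046 genes, with 7296 removed) and, as an alternative, DESeq2 1.42.0. SE is that implied by the F statistic. The code was checked on simulated data. P-values set each group difference against the spread between libraries, and depth was 31172215 to 34084345 counts. Per-library values are given for up to 14 called members of lowest adjusted p and the 3 of highest FPKM. From each other list up to 4 called genes were allowed, and Prg4 was named for the tissue check. The members and lists were chosen with earlier results of these data known.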

Additional observations from a re-analysis of the deposited data

Results flagged for a closer look

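In 51 groups of 5 values (16 genes with values per library and the summed level, in 3 groups), 2 held a library that stood apart from the other 4 by Dixon's criterion, which chance alone meets in about 1 in 20 groups. Ctsl was at 1191 CPM in AIA replicate 13, against 720 to 824 CPM in the other AIA libraries. Gm2a was at 592 CPM in control replicate 11, against 700 to 746 CPM in the other control libraries.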

How the results depend on the processing

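DESeq2 called 1 member higher in AIA against control and 10 lower in antibody against AIA. With the 2 groups compared alone, 1 was lower in antibody against AIA. Without both muscle-bearing libraries, 1 was lower in AIA against control, 1 lower in antibody against AIA, and 0 higher and 5 lower in antibody against control. Without AIA replicates 18, 19 and 23, an alternative chosen after seeing the data, 0 were lower in AIA against control and 0 in antibody against AIA.

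With 1 library left out at a time, AIA against control gave 0 to 4 higher and 2 to 3 lower, antibody against AIA 0 to 0 higher and 0 to 11 lower, and antibody against control 0 to 1 higher and 5 to 12 lower. Median log2 fold changes ran from -0.0584 to 0.0718, -0.2782 to -0.1722 and -0.287 to -0.1981. Ratios of the summed level (0.951, 0.874 and 0.832) ran from 0.909 to 1.01, 0.841 to 0.915 and 0.798 to 0.881.

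The 19 called values were estimated again under other settings, which gave 122 values, and with 1 library left out, which gave 190. All kept their sign. The call was lost in 28 of the 122 and in 68 of the 190. Values from the same fit are not independent. Signs changed in values that were not called. Psap in antibody against AIA was -0.0174 without the muscle-bearing libraries, -0.0688 without AIA replicates 18, 19 and 23, and -0.0384 to 0.0849 with 1 library left out. Without AIA replicates 18, 19 and 23, Asah1 in antibody against AIA was -0.077, and Cd68 and Gpnmb in AIA against control -0.1002 and -0.0579. With 1 library left out, Cd68 in AIA against control ran from -0.0351 to 0.1778, Gpnmb from -0.0584 to 0.2712, and Lipa in antibody against control from -0.1123 to 0.0169. The cause was not tested.

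No paired analysis was possible because the groups have no replicate number in common.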
